A study of Mus musculus with 12 samples.

Results

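The comparison set 3 libraries of mouse embryonic stem cells (mESCs) with a mutant EPOP against 3 libraries of mESCs with wild-type (WT) EPOP, 6 of the 12 libraries in the series, chosen by their genotype and cell type labels. The mutant group was E14 mESCs, an established male mouse line, in which a mutant EPOP was re-expressed. The WT group was the same line with re-expressed WT EPOP. All 6 cultures grew without further treatment on gelatin in 2i/LIF medium, which contains leukaemia inhibitory factor (LIF), the MEK inhibitor PD0325901 and the GSK3 inhibitor CHIR99021. The other 6 libraries, 3 mutant and 3 WT, came from epiblast-like cells (EpiLCs) derived from mESCs with activin A and bFGF, and entered only the model's estimate of spread and the comparison of effects near the end. The nature of the mutation, the promoter behind re-expression and whether a genotype was 1 clone or a pool are not given in the sources used here. Parental and knockout cells were not analysed here, so both groups carry a re-expressed EPOP and neither is an untouched baseline. Columns of the count table that are not WT carry a short code, unexplained in the labels, and every direction below rests on their being the mutant, the other labelled genotype. The labels do not call the replicates separate cultures, so p-values measure the spread between libraries, which may be technical.

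EPOP is an accessory protein of the PRC2.1 form of Polycomb repressive complex 2, which also holds a Polycomb-like subunit such as MTF2 or PHF19. The complex places H3K27me3, a histone mark of silent developmental genes, and in mESCs its sites lie mostly at CpG-rich promoters, those of the Hox clusters among them. EPOP also binds Elongin B and C, which take part in transcription elongation and protein turnover. In 2i/LIF the MEK inhibitor holds down ERK signalling and the GSK3 inhibitor stabilises beta-catenin, and the cells stay in a naive, pre-implantation-like state. The study's title asks how EPOP limits the targeting of PRC2.1. The RNA comparison asks which transcripts differ between cells with the mutant and the WT protein.

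Depth was 9071935 to 9751214 counts over named genes in mutant and 7714164 to 10237369 in WT libraries. The first principal component of the 6 libraries, with 48% of the variance, separated the mutant from the WT libraries. The second, with 14.6%, set mutant replicate 1 (a score of 27.4) apart from mutant replicates 2 and 3 (-14.5 and -13.5). The naive marker genes Esrrb, Klf4, Tfcp2l1 and Zfp42 were high in all 6 libraries, and the summed level of 7 mESC markers was 5610 to 5730 CPM (counts scaled to library size) in mutant and 5910 to 6020 CPM in WT libraries. Of 7 fibroblast or feeder markers, Col3a1, Lum, Postn and Dcn had no count in any of the 6 mESC libraries. Of the others Col1a1 was lower, with 1, 1.77 and 1.11 CPM in mutant and 3.88, 2.62 and 3.6 CPM in WT libraries, Thy1 was not called, at 2.11 to 4.27 CPM in mutant and 3.98 to 5.92 CPM in WT libraries, and Col1a2 stayed at or below 0.111 CPM. The transcript of Epop itself, listed as E130012A19Rik, stood at 462, 474 and 471 CPM in mutant and 463, 471 and 485 CPM in WT libraries. These groups overlapped (edgeR adjusted p = 0.877), so this level does not check the labels.

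The libraries also differed at the Y chromosome. Eif2s3y, a translation factor gene, had 151, 159 and 148 CPM in mutant and 62.4, 64.8 and 63.6 CPM in WT mESCs. All 4 tested Y genes (Eif2s3y, Ddx3y, Uty and Uba1y) were higher in mutant mESCs, with log2 fold changes of 0.86 to 1.30, and none of the 4 had overlapping groups. Here and below, separate groups alone mean little with 3 libraries each. They also occurred in Pou5f1 and Sox2, which were not called (edgeR adjusted p = 0.133 and 0.271), and their share over all tested genes is not given. In EpiLCs the log2 fold changes of the 4 Y genes were 0.85 to 1.23, and the edgeR adjusted p of the difference between the states was 0.752 to 0.949. Summed over these genes, the level was 224 to 248 CPM in mutant and 107 to 109 CPM in WT mESCs. Over genes of at least 10 TPM (a level per transcript length), the median log2 fold change of every other chromosome lay between -0.010 and 0.047. The part that the difference at the Y chromosome plays in the other results was not tested.

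In mutant mESCs more genes fell than rose, and the large changes were mostly falls of weakly expressed genes. The tested Hoxd genes, the Zscan4 family of the 2-cell-like state, some germ cell genes (25 of 64 tested) and some imprinted genes (20 of 59) were lower. Abundant transcripts that changed included Trh and Lin28a, which rose, and Mest, which fell. Of 13879 genes tested with the edgeR quasi-likelihood test, 2574 (18.5%) passed a Benjamini-Hochberg adjusted p of 0.05, with 1166 (8.40%) higher and 1408 (10.1%) lower in mutant cells. At 2-fold or more, 72 (0.519%) were higher and 462 (3.33%) lower. Without mutant replicate 1, the counts were 839 higher and 1170 lower, and 68 and 417 at 2-fold or more.

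**Figure D1:**
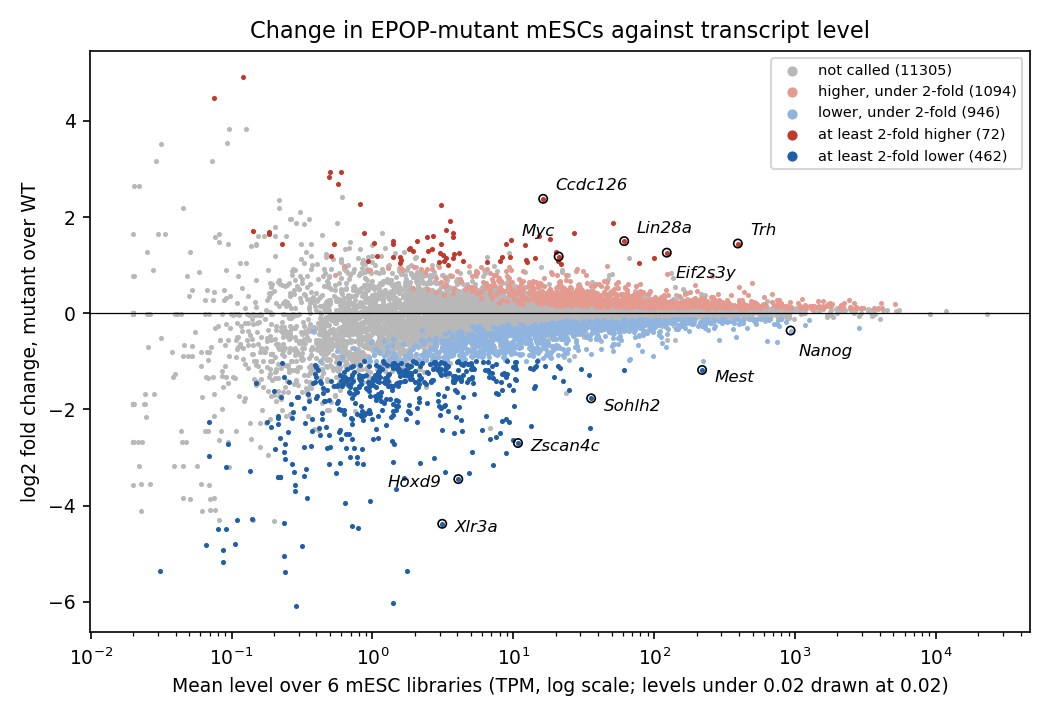
Each point is a tested gene, with its mean level over the 6 mESC libraries (TPM, log axis) and its log2 fold change, mutant over WT. Dark red marks the 72 genes at least 2-fold higher and dark blue the 462 at least 2-fold lower, and the blue points lie mostly at low levels.

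The direction of change followed transcript level. Genes at least 2-fold lower had a median level of 1.33 TPM and genes at least 2-fold higher one of 3.12 TPM, against 18.1 TPM for all genes tested. When the tested genes were split by level into 5 classes of equal size, 332 of the 2776 genes in the lowest class (12.0%) were at least 2-fold lower and 34 (1.22%) at least 2-fold higher. In the highest class these numbers were 1 (0.036%) and 4 (0.144%) of 2776. Among calls of any size the share of higher genes ran the other way, with 51 genes (1.84%) in the lowest class and 513 (18.5%) in the highest. The share of lower genes ran as it did at 2-fold, with 407 (14.7%) in the lowest class and 181 (6.52%) in the highest. The change needed for a call depends on counts, with an SE of 0.03 for Trim28 (mean 2090 CPM) and 0.55 for Hand2 (1.05 CPM). Shares of calls thus do not compare the classes at equal sensitivity. The median log2 fold change was -0.30 in the lowest class (-0.29 with genes without a count set at their bound) and 0.05 in the highest.

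**Figure D2:**
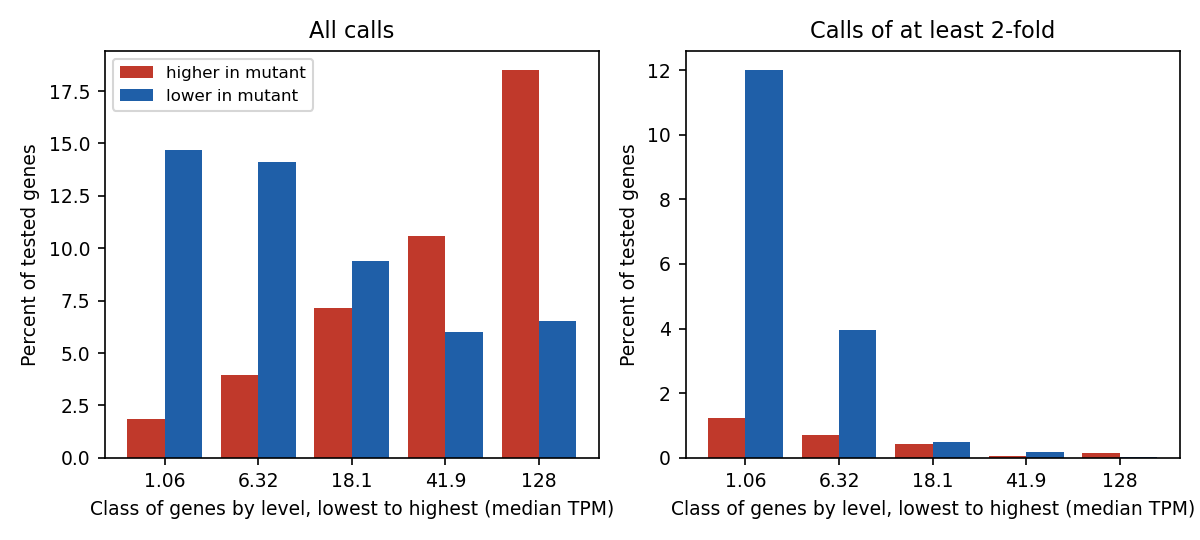
Bars give the percent of tested genes called higher (red) or lower (blue) in mutant mESCs, in 5 classes of genes by level, each labelled with its median TPM. In the right panel, for changes of at least 2-fold, the share of lower genes is 12.0% in the lowest class and 0.036% in the highest.

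Fewer genes were detected in mutant cells. At an equal depth of 7714164 counts, 15585, 15607 and 15745 genes had a count in the mutant libraries and 15976, 16116 and 16163 in the WT libraries. The groups did not overlap, with means of 15646 ± 86.7 and 16085 ± 97.3 genes (SD, n = 3 each), and the 2-sided exact permutation p was 0.1, the smallest that 3 against 3 libraries allow. There were 32 genes without a count in any mutant library and with at least 10 counts over the WT libraries. The reverse held for 2 genes, Asb11 and Tmem154, named here after their values were seen. In bulk RNA, fewer cells that express a gene and less of its RNA per cell cannot be told apart.

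Among the transcripts that rose, Trh was abundant and changed in a narrow range. Trh, the precursor of thyrotropin-releasing hormone (chromosome 6, 92242061 to 92244650, minus strand, GRCm38), had 397, 391 and 401 CPM in mutant and 145, 147 and 142 CPM in WT libraries. Its log2 fold change was 1.45 ± 0.05 (SE; edgeR adjusted p = 7.73e-57), and per length it averaged 572 TPM in mutant and 214 TPM in WT cells. Lin28a, an RNA-binding protein that blocks let-7 maturation, had 154, 161 and 154 CPM in mutant and 60.6, 51.3 and 54.6 CPM in WT libraries. All mutant libraries were above all WT libraries in both genes, which for Lin28a was a condition of its choice.

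Ccdc126, on chromosome 6 from 49319274 to 49341582, had 32.4, 27.9 and 32.8 CPM in mutant and 5.43, 7.09 and 5.14 CPM in WT libraries, a 5.19-fold difference. The 10 largest rises were taken among called genes of at least 2 CPM with separate groups and no predicted or clone name. Beside Ccdc126 and Lin28a they were Slc22a18, Phlda2, Arhgdib, Gli1, Tgm3, Casq2, Calb2 and Sp5, with log2 fold changes of 1.52 to 1.91. Weaker genes outside this rule could rise more, such as Cdx2 (2.94, at a mean of 0.531 CPM). Calb2, which encodes the calcium-binding protein calretinin, had 18.4, 21.3 and 17.8 CPM in mutant and 6.98, 5.44 and 7.45 CPM in WT libraries. Gli1, a Hedgehog pathway transcription factor, had 40, 38.3 and 47.0 CPM in mutant and 9.53, 15.8 and 15.5 CPM in WT libraries, and its exons overlap those of Arhgap9. No gene of these 10 had overlapping groups, a condition of their choice. Slc22a18 and Phlda2 are neighbours in an imprinted domain of chromosome 7.

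**Figure D3:**
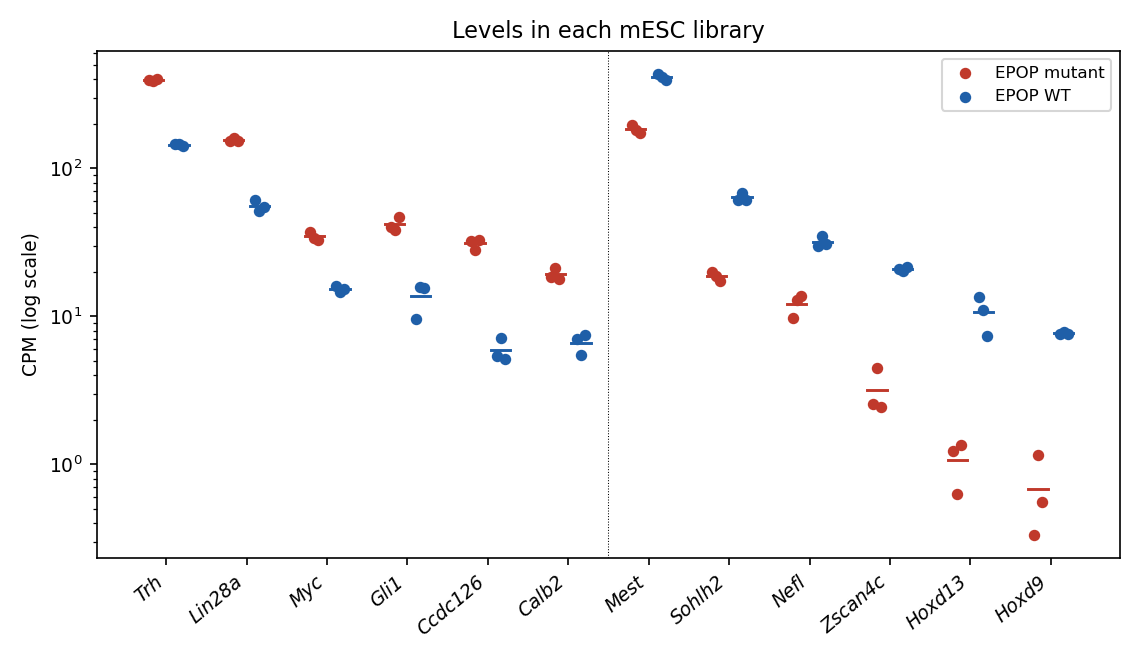
Points are single mESC libraries (CPM, log axis), with mutant libraries in red at the left and WT libraries in blue at the right of each gene, and lines are group means. Left of the dotted line are 6 genes that rose and right of it 6 that fell, with no overlap between the groups in any of the 12. Separate groups were a condition of choice for Lin28a, Gli1, Ccdc126, Calb2, Hoxd13 and Hoxd9.

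Among the 5 most abundant genes called higher by at least 1.5-fold were Egr1, Utf1 and Cyb5r3 beside Trh. Egr1, an immediate early transcription factor, had 881, 920 and 949 CPM in mutant and 571, 598 and 627 CPM in WT libraries. Utf1, a chromatin-associated pluripotency factor, had 185, 185 and 191 CPM in mutant and 108, 113 and 106 CPM in WT libraries. The remaining one, Snord42b, lies within Rpl23a and cannot be told apart from it here, and its call was lost without any 1 library other than WT replicate 3, at log2 fold changes of 0.62 to 0.90. Abundant genes that fell by at least 1.5-fold were Actg1, Tuba3a, Mest, Impact and Rbmxl2. Actg1, which encodes gamma-actin, had 568, 542 and 542 CPM in mutant and 843, 842 and 802 CPM in WT libraries. Tuba3a, a tubulin gene used in testis, had 111 CPM in each mutant library and 209, 224 and 228 CPM in the WT libraries. No mutant library reached the lowest WT library in either gene.

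Gene lists for pathways, states and complexes follow, each set beside the shares of all genes, 8.40% higher and 10.1% lower, and some genes stand in more than 1 list. Members that complete a count of 5 or fewer without meeting the rule for named genes are marked by an asterisk and were named after their values were seen. Where the call of a named gene was lost in the fit without 1 library, the log2 fold change of that fit is given with the library.

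Of the pathways that the medium acts on, called genes were more often higher than lower. Of 41 ERK response and feedback genes, 8 (19.5%) were higher and 3 (7.32%) lower, with a median log2 fold change of 0.08 against 0.00 for all genes. Myc, a growth-promoting transcription factor, had 37.0, 34.0 and 33.0 CPM in mutant and 16.1, 14.5 and 15.4 CPM in WT libraries (log2 fold change 1.18 ± 0.09, SE; edgeR adjusted p = 1.33e-21). Spry4 and Dusp1, which dampen ERK signalling, rose with log2 fold changes of 1.07 and 0.64. Ier5, another early response gene, was among the 3 members that fell, at 4, 4.06 and 2.90 CPM in mutant and 6.65, 6.60 and 7.19 CPM in WT libraries. The others that fell were Klf10* and Epha2*. The call of Epha2 was lost without WT replicate 2 (-0.14) or mutant replicate 3 (-0.15).

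Of 27 WNT target genes and TCF factors, 9 (33.3%) were higher and 2 (7.41%) lower, with a median log2 fold change of 0.04. Sp5, a direct target of beta-catenin, had 13, 16.9 and 14.5 CPM in mutant and 5.21, 5.05 and 5.27 CPM in WT libraries. Bmp4, a signalling ligand that the list holds too, averaged 36.9 ± 0.67 CPM in mutant and 19.5 ± 0.37 CPM in WT libraries (SD, n = 3 each). The higher members include Myc, which the ERK list shares, and Cdx2, which had only 26 counts over the mutant and 3 over the WT libraries. The lower ones were Sfrp1* and Cdh1*. Id3, a BMP-induced inhibitor of differentiation, had 49.8, 55.7 and 44.7 CPM in mutant and 24.3, 23.0 and 25.3 CPM in WT libraries, in a list of 26 BMP pathway and Id genes with 3 members higher (11.5%; Id3, Bmp4 and Gdf3*) and 3 lower (11.5%; Bmp7, Gdf15 and Bmpr2*). Gdf3 lost its call without mutant replicate 1 (0.14), and Bmpr2 without WT replicate 1 (-0.20), mutant replicate 1 (-0.26) or mutant replicate 3 (-0.24).

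Of 24 LIF and STAT3 pathway genes, 6 (25%) were higher and 2 (8.33%; Socs1 and Pim1*) lower, with a median log2 fold change of 0.06. Lifr, the LIF receptor subunit, had 107, 105 and 109 CPM in mutant and 76.9, 85.6 and 78.5 CPM in WT libraries, and Socs1, a feedback inhibitor, lost its call without WT replicate 1 (-0.66) or mutant replicate 3 (-0.54). Of 12 Myc network genes, Myc and Mga were higher (16.7%) and none lower.

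The Nodal, FGF and Hedgehog lists had more members lower than higher. Of 22 Nodal and activin pathway genes, 7 (31.8%) were lower and 2 (9.09%; Acvr1b and Gdf3*) higher, with a median log2 fold change of -0.08. Lefty2, a secreted Nodal inhibitor, had 283, 281 and 286 CPM in mutant and 410, 430 and 413 CPM in WT libraries. Of 22 FGF ligands and receptors, 6 (27.3%) were lower and 2 (9.09%; Fgf10* and Frs2*) higher. Fgf4, the ligand by which mESCs activate their own ERK signalling, had 161, 162 and 150 CPM in mutant and 210, 211 and 217 CPM in WT libraries. Among 18 Hedgehog pathway genes, Gli1 was the 1 that rose (5.56%) and 4 fell (22.2%; Smo, Hhip, Gas1 and Cdon*). Smo, the pathway's signal transducer, had 67.1, 60.9 and 66.6 CPM in mutant and 94.5, 91.6 and 94.0 CPM in WT libraries, and Hhip, a pathway inhibitor, had 4, 4.06 and 4.79 CPM in mutant and 10.3, 9.32 and 9.51 CPM in WT libraries. The groups did not overlap in Lefty2, Fgf4, Smo or Hhip. Without mutant replicate 1 the calls of Gdf3 (0.14), Gas1 (-0.59) and Cdon (-0.36) were lost. That of Fgf10 was lost without any 1 library other than mutant replicate 3 (0.48 to 0.58), and that of Frs2 without WT replicate 2 (0.18), WT replicate 3 (0.16), mutant replicate 1 (0.16) or mutant replicate 2 (0.23) and in the 6 mESC libraries alone (0.20).

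Pluripotency genes changed in both directions and mostly by small amounts. Of 26 general pluripotency genes, 9 (34.6%) were higher and 4 (15.4%; Nanog, Fgf4, Dppa5a* and Zfp57*) lower, with a median log2 fold change of 0.07. Nanog, a core pluripotency factor, had 912, 917 and 876 CPM in mutant and 1180, 1120 and 1160 CPM in WT libraries (log2 fold change -0.36 ± 0.04, SE; edgeR adjusted p = 3.33e-15), and the groups did not overlap. Pou5f1, Sox2, Klf4, Esrrb, Zfp42 and Tbx3 were not called, with log2 fold changes of -0.07 to 0.07. Of 34 naive pluripotency genes, 11 (32.4%) were higher and 8 (23.5%) lower, with a median of 0.01, and without mutant replicate 2 the number higher was 7. Gbx2, a homeobox factor of the naive network, had 45.4, 42.7 and 42.7 CPM in mutant and 25, 23.9 and 26.5 CPM in WT libraries, and Tcl1, a coactivator of AKT kinases, had 39.3, 32.0 and 40.3 CPM in mutant and 54.1, 53.8 and 50.9 CPM in WT libraries. Of 34 formative and primed epiblast genes, 9 (26.5%) were lower and 5 (14.7%; Utf1, Foxd3, Eomes and Zic2* among them) higher. Pou3f1, an early epiblast and neural factor, had 2.34, 5.31 and 4.68 CPM in mutant and 7.09, 9.32 and 9.25 CPM in WT libraries. Zfp57 lost its call without WT replicate 2 (-0.13), WT replicate 3 (-0.11), mutant replicate 1 (-0.14) or mutant replicate 2 (-0.08).

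Transcripts of the Polycomb machinery changed little. Of 14 PRC2 subunits, Eed, Ezh2 and Jarid2 were higher and Mtf2 and Phf19 lower, with a list median of -0.01. Eed, a core subunit that reads H3K27me3, had 197, 187 and 197 CPM in mutant and 155, 167 and 173 CPM in WT libraries. Phf19, a Polycomb-like subunit, had 3.78, 5.21 and 4.12 CPM in mutant and 9.53, 5.73 and 6.42 CPM in WT libraries (log2 fold change -0.72 ± 0.23, SE; edgeR adjusted p = 0.0178). Changes of the other called subunits were between -0.12 and 0.23, and Suz12, Ezh1, Rbbp4, Rbbp7, Phf1, Lcor, Lcorl, Aebp2 and Epop were not called. Of 14 canonical PRC1 subunits, 4 (28.6%; Cbx2, Phc1 and Scmh1 among them) fell and none rose. Cbx2, a compacting reader of H3K27me3, had 32.4, 34.3 and 34.2 CPM in mutant and 51.5, 45.6 and 48.7 CPM in WT libraries. Of 17 variant PRC1 subunits, 4 (23.5%) rose and 1 (5.88%), Bcorl1, fell. Pcgf6, L3mbtl2 and Mga, which belong to the PRC1.6 complex that keeps germ cell genes silent, rose with log2 fold changes of 0.16 to 0.21, and Tfdp1* was the fourth. Of the called PRC2 subunits, Eed kept its call without each library in turn and the other 4 did not. Phf19 lost it without WT replicate 1 (-0.46), mutant replicate 1 (-0.63) or mutant replicate 3 (-0.68), and Mtf2 without WT replicate 1 (-0.08), WT replicate 2 (-0.12), mutant replicate 1 (-0.11) or mutant replicate 3 (-0.09). Ezh2 lost it without WT replicate 1 or 3 (0.12 each), mutant replicate 1 (0.07) or mutant replicate 3 (0.13). Jarid2 lost it without WT replicate 2 (0.11), WT replicate 3 (0.10), mutant replicate 1 (0.09) or mutant replicate 2 (0.12), and Pcgf6 without mutant replicate 1 (0.13).

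Hox genes pattern the body axis and are classic Polycomb targets. Of 28 tested Hox genes, 10 (35.7%) were lower, all by at least 2-fold, and 1 (3.57%) was higher. The median log2 fold change was -1.18, or -0.92 with genes without a count set at their bound. Hoxd13, a posterior limb and trunk gene at the end of its cluster, had 1.22, 0.625 and 1.34 CPM in mutant and 13.5, 11.0 and 7.32 CPM in WT libraries. Hoxd9 had 0.334, 1.15 and 0.557 CPM in mutant and 7.54, 7.87 and 7.58 CPM in WT libraries. In both genes every mutant library was below every WT library, a condition of their choice. Hoxa9 was at 0 counts in every mutant library, against 11, 10 and 4 counts in the WT libraries.

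By cluster, all 5 tested Hoxd genes fell, as did 4 of 10 tested Hoxa, 1 of 9 Hoxb and 0 of 4 Hoxc genes, and the difference between clusters was not tested. Hoxd13, Hoxd11, Hoxd9, Hoxd8 and Hoxd1 had log2 fold changes of -3.95 to -1.69, and the neighbouring Mtx2, a mitochondrial import gene, fell too, at -0.40. They form a run of 6 called genes on chromosome 2 from 74668310 to 74878431. Among members that were not called, Hoxb9 averaged 13.2 CPM over the 6 libraries with a log2 fold change of -0.18, and Hoxc13 averaged 15.6 CPM with one of 0.30. Hoxc12*, the 1 that rose, had 5.12, 6.35 and 3.01 CPM in mutant and 2.88, 2.14 and 1.41 CPM in WT libraries. Hoxb9 and Hoxc13 were named after their values were seen. The call of Hoxc12 was lost without WT replicate 2 (1.14), WT replicate 3 (0.95), mutant replicate 1 (1.11) or mutant replicate 2 (0.91).

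Other developmental regulators also fell more often than they rose. Of 42 homeobox factors outside the Hox clusters, 12 (28.6%) were lower and 3 (7.14%; Cdx2, Cdx1* and Nkx6-2*) higher, and without WT replicate 2 the number lower was 6. Of 63 other Polycomb target transcription factors, 20 (31.7%) were lower and 7 (11.1%) higher. The number lower was 13 without mutant replicate 1 or WT replicate 2, 9 without mutant replicate 3 and 11 in a fit to the 6 mESC libraries alone. Many of these factors were near the limit of detection. Foxc1, a mesenchymal forkhead factor, had 0, 0.104 and 0.446 CPM in mutant and 0.665, 1.94 and 2.57 CPM in WT libraries. Barx1, a homeobox gene of jaw and stomach, had 1.33, 0.521 and 0.111 CPM in mutant and 3.55, 4.47 and 2.44 CPM in WT libraries. Eomes, a T-box factor of the trophoblast and primitive streak, was among those that rose, with 29.3, 30.9 and 34.4 CPM in mutant and 17.2, 21.8 and 20.0 CPM in WT libraries. Of 35 Polycomb target signalling genes, 8 (22.9%) were lower and 1 (2.86%), Fgf10* (not called without any 1 library other than mutant replicate 3, at 0.48 to 0.58), higher, with 5 lower without WT replicate 3. Slit3, an axon guidance ligand, had 1.89, 2.39 and 2.34 CPM in mutant and 5.43, 5.15 and 5.91 CPM in WT libraries.

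The promoters of 2 of these genes are shown beside that of a 2-cell-like gene, since Polycomb sites are known for their CpG content and the genes that fell differed in it. The windows run from 250 bases before to 50 after the RefSeq start (GRCm38.p6), 5′ to 3′ on the gene's strand, with each CG in capitals. The Hoxd9 window (chr2:74697513-74697812, plus strand) holds 20 CG and the Foxc1 window (chr13:31806396-31806695, plus strand) 32, while that of Zscan4b (chr7:10905001-10905300, minus strand) holds 1. Their CG content over that expected from base composition was 0.57 for Hoxd9, 0.94 for Foxc1 and 0.06 for Zscan4b. Over the 10633 windows of tested genes the median was 0.765, above the value of Hoxd9. Over the windows of the 10 Hox genes that fell it was 0.583, and 3 of them (30.0%) reached 0.6.
Hoxd9: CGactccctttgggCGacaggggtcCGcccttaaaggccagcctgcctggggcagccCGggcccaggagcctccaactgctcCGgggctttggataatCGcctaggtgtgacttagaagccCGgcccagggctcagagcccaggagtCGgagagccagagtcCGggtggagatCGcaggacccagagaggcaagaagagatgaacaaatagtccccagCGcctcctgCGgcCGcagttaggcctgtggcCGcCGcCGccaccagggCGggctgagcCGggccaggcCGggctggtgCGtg
Foxc1: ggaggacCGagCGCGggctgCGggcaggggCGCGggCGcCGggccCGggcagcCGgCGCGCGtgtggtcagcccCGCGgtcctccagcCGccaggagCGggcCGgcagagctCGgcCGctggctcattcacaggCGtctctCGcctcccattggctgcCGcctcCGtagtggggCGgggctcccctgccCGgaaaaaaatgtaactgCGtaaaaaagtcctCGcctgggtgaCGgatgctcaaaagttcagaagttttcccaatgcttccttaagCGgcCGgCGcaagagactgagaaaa
Zscan4b: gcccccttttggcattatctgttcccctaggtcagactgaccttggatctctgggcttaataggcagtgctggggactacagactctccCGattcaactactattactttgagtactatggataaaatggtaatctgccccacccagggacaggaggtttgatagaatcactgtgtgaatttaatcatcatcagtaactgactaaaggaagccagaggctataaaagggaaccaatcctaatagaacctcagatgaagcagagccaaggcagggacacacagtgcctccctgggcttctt
No count of promoter classes over all called genes is given, because only 10633 of the 13879 tested genes had a window, under the 80% set as the minimum.

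The 2-cell-like genes fell together. These genes mark a rare, fluctuating state of mESC cultures that resembles the 2-cell embryo, and Zscan4 proteins are its best known products. Of 27 tested members, 21 (77.8%) were lower, 19 of them by at least 2-fold, and none was higher, with a median log2 fold change of -2.26. Zscan4c had 2.56, 4.48 and 2.45 CPM in mutant and 20.9, 20.1 and 21.6 CPM in WT libraries. Zscan4a, Zscan4b, Zscan4c, Zscan4d, Zscan4e and Zscan4f are 6 neighbours on chromosome 7 from 10794242 to 11402318, and their log2 fold changes were -3.31 to -2.64. Tmem92, another gene of this state, had 0.222, 0.937 and 0.223 CPM in mutant and 3.88, 4.18 and 4.50 CPM in WT libraries. In each of these 7 genes the groups did not overlap, which was a condition of choice for all but Zscan4c and Zscan4d. The copies of Zscan4 share sequence, so their split of reads is uncertain.

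Clusters of predicted genes with this pattern stood next to each other elsewhere. On chromosome 12, from 87514316 to 88324026, 7 neighbours fell with log2 fold changes of -2.62 to -2.11, among them Gm2022, Gm5662 and Gm8300, which the 2-cell-like list holds. Gm8300 had 3.00, 1.87 and 3.12 CPM in mutant and 10.8, 14.5 and 12.6 CPM in WT libraries. A run of 6 on chromosome 10, from 104142987 to 104188000, had identical values for every gene (0.111, 0.208 and 0.111 CPM in mutant and 1.77, 1.46 and 1.80 CPM in WT libraries), and counts as 1 measurement. Usp17la and Usp17le, deubiquitinase genes with many near copies, fell as well, with log2 fold changes of -3.91 and -3.01. Members of the list that were not called included Eif1a and Nelfa, which all mESCs express, at 233 and 93.1 CPM over the 6 libraries. These 2 were named after their values were seen.

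Germ cell genes that PRC1.6 or promoter DNA methylation keeps silent were lower more often than higher. Of 64 tested, 25 (39.1%) were lower, 4 (6.25%) higher and 35 not called, with a median log2 fold change of -0.30. Sohlh2, a transcription factor of germ cell differentiation, had 19.9, 18.7 and 17.2 CPM in mutant and 61.5, 68.2 and 60.9 CPM in WT libraries. Tex15, which acts in meiosis and piRNA-directed silencing, had 3.78, 4.27 and 5.24 CPM in mutant and 15.0, 9.91 and 13.7 CPM in WT libraries. The groups did not overlap in either gene. The piRNA pathway genes Mov10l1, Tdrkh and Piwil4 fell too, with log2 fold changes of -1.32, -1.23 and -0.98, as did Dazl, an RNA-binding protein of germ cells, at -1.16. Dnmt3l, a cofactor of the de novo DNA methyltransferases, was the member that rose by at least 2-fold, with a log2 fold change of 1.10 (SE 0.11, with an edgeR adjusted p of 2.1e-16), though its exons overlap those of Aire. Hormad2*, Gtsf1l* and Ccnb1ip1* were the other 3. Mov10l1, Tdrkh, Piwil4 and Dazl were also named after their values were seen. Piwil4 lost its call without WT replicate 2 (-0.91), mutant replicate 2 (-0.87) or mutant replicate 3 (-0.73) and in the 6 mESC libraries alone (-0.98). Hormad2 lost it without WT replicate 1 (0.78), WT replicate 2 (0.74), mutant replicate 1 (0.80) or mutant replicate 2 (0.77), and Gtsf1l without WT replicate 1 (0.67), WT replicate 2 (0.59) or mutant replicate 1 (0.65).

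Taf7l, a testis form of a general transcription factor subunit, is shown for the E-box that PRC1.6 is known to bind through MGA and MAX. It had 0.779, 1.25 and 1.78 CPM in mutant and 4.32, 6.80 and 4.50 CPM in WT libraries, with no overlap. Its RefSeq promoter window (chrX:134476441-134476740, minus strand, GRCm38.p6) is printed 5′ to 3′ with the E-box, CACGTG, in capitals.
Taf7l: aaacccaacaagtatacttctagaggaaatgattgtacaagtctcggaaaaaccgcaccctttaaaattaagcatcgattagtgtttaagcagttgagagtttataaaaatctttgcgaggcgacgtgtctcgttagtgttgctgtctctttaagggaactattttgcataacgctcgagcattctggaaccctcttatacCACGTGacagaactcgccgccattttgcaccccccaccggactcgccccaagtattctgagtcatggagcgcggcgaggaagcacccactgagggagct
The motif, which reads the same on both strands, starts 49 bases and ends 44 bases before the start. Of the 25 germ cell genes that fell, 22 had a window and 8 of these (36.4%) held CACGTG, against 17 of the 57 windows of all tested members (29.8%), 10.3% of the 10633 windows of tested genes and 7.15% of all 32817 windows in the table. This is a description of letters, and the list was assembled partly from genes known as PRC1.6 targets.

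**Figure D4:**
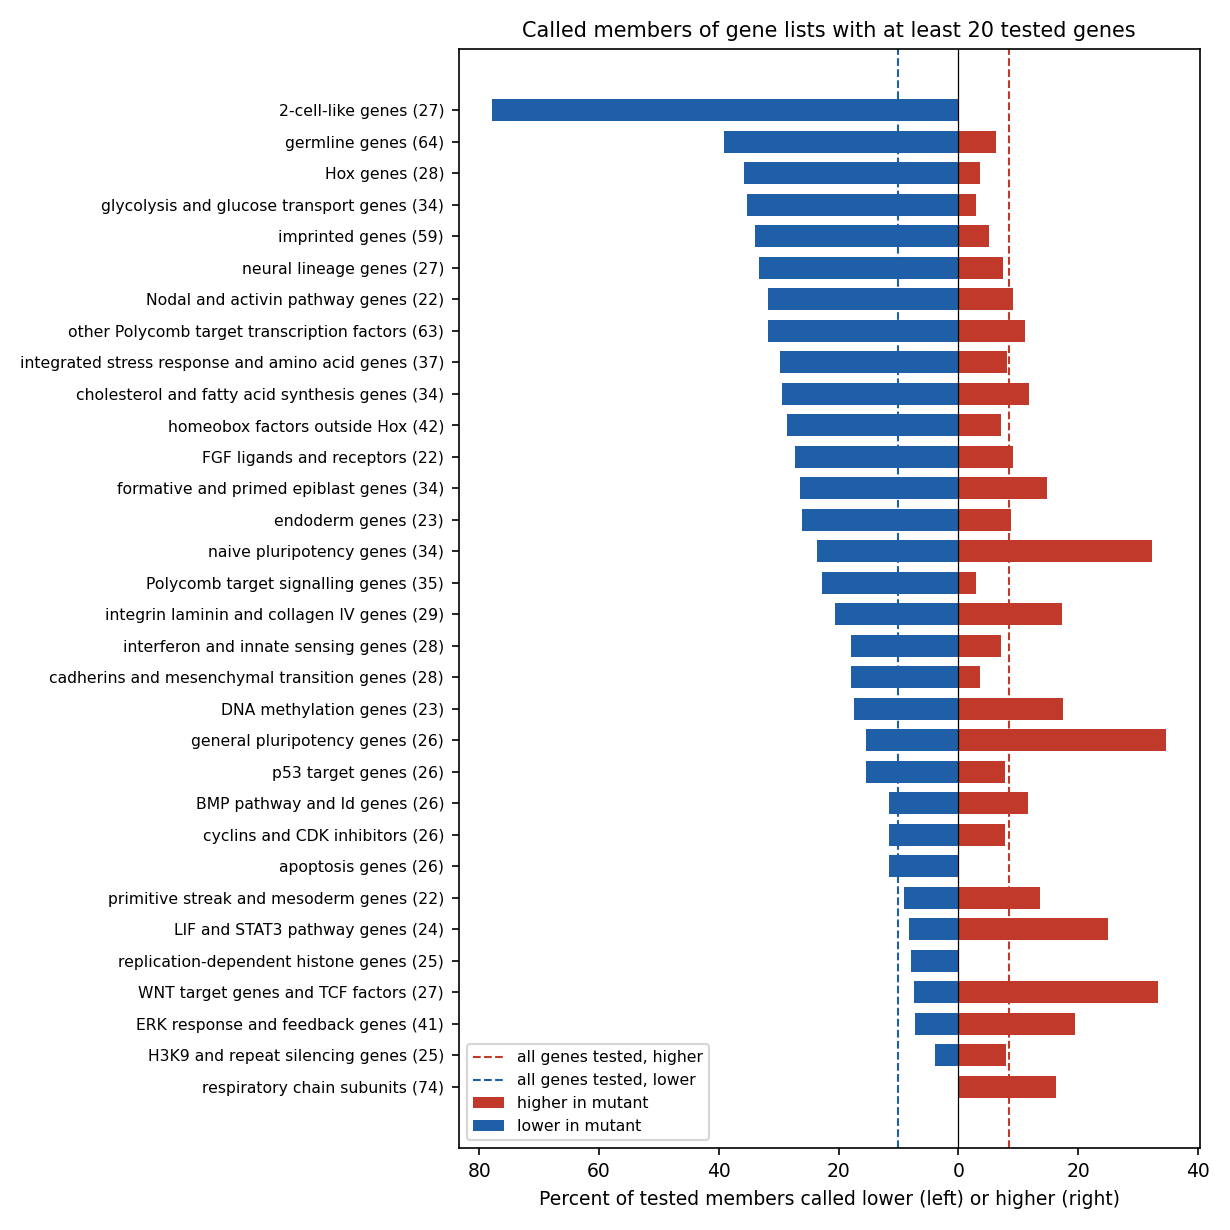
Bars give the percent of tested members called higher (red, right) or lower (blue, left) in mutant mESCs for each list with at least 20 tested genes, whose number is in brackets. Dashed lines mark 8.40% higher and 10.1% lower over all genes, and 2-cell-like genes reach 77.8% lower.

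Imprinted genes, which are transcribed from 1 parental copy, were lower more often than higher, with 20 of 59 lower (33.9%) and 3 higher (5.08%). Mest, a paternally expressed hydrolase gene on chromosome 6 from 30723547 to 30748465, had 197, 181 and 172 CPM in mutant and 435, 414 and 396 CPM in WT libraries. Its log2 fold change was -1.18 ± 0.04 (SE; edgeR adjusted p = 7.33e-53), and its exons overlap those of Copg2. Impact, a paternally expressed regulator of translation, had 153, 161 and 153 CPM in mutant and 251, 249 and 264 CPM in WT libraries. Peg13, a paternally expressed non-coding RNA, had 0, 0.416 and 0 CPM in mutant and 4.99, 2.82 and 2.70 CPM in WT libraries. Phlda2, a maternally expressed inhibitor of placental growth, went the other way, with 31.7, 29.3 and 27.7 CPM in mutant and 9.86, 8.35 and 5.52 CPM in WT libraries. The third that rose, beside Slc22a18, was Commd1*, at a log2 fold change of 0.29, which lost its call without WT replicate 1 (0.26) or mutant replicate 1 (0.23).

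DNA methylation genes moved both ways, with 4 of 23 higher (17.4%; Dnmt3l, Trim28, Mbd3* and Gadd45a*) and 4 lower (17.4%; Tet3, Dnmt3a, Uhrf2 and Zfp57*). Tet3, which oxidises methylated cytosine, had 16, 14.1 and 18.4 CPM in mutant and 31.4, 34.8 and 32.2 CPM in WT libraries. Dnmt3a, a de novo methyltransferase, had 55.4, 52.7 and 52.7 CPM in mutant and 66.7, 76.5 and 75 CPM in WT libraries. Of 25 H3K9 and repeat silencing genes, 2 (8.0%; Trim28 and Atrx) rose and 1 (4.0%; Zfp809) fell. Trim28, the corepressor of zinc finger proteins at repeats, had 2200, 2110 and 2190 CPM in mutant and 2050, 1980 and 1990 CPM in WT libraries, a log2 fold change of 0.11. The groups did not overlap in any of these 3 genes, although the change of Trim28 was small. Trim28 lost its call without WT replicate 2 or mutant replicate 1 (0.10 each), Gadd45a without any 1 library other than WT replicate 3 (0.18 to 0.26), and Zfp57 without WT replicate 2 (-0.13), WT replicate 3 (-0.11), mutant replicate 1 (-0.14) or mutant replicate 2 (-0.08).

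Lineage lists differed in the direction of their calls. Primitive streak and mesoderm genes had 3 of 22 higher (13.6%; Eomes, Cdx1* and Cdx2) and 2 lower (9.09%; Foxc1 and Hand2), and Hand2 lost its call without any 1 library other than WT replicate 1 (-1.63 to -1.17). Trophoblast genes had 3 of 18 higher (16.7%; Eomes, Cdx2 and Bmp4) and 3 lower (16.7%; Esx1, Peg10 and Ddah1*). Of 27 neural lineage genes, 9 (33.3%) were lower and 2 (7.41%; Vim and Gbx2) higher. Sox1, a neural plate factor, had 7.23, 7.39 and 8.47 CPM in mutant and 20.4, 22.0 and 14.8 CPM in WT libraries. Nefl, a neurofilament gene, had 9.79, 12.8 and 13.7 CPM in mutant and 30.0, 34.7 and 30.8 CPM in WT libraries. Nefm, its neighbour and partner in the filament, had 0.556, 0.208 and 0.557 CPM in mutant and 4.10, 4.47 and 5.91 CPM in WT libraries, and exons of the pair overlap. Tubb3, a tubulin that mESCs also express, was not called, at 262 to 267 CPM in mutant and 235 to 249 CPM in WT libraries.

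Of 23 endoderm genes, 6 (26.1%) were lower and 2 (8.70%; Apoe* and Lama1*) higher. The collagen IV pair of the basement membrane was among them, and Col4a1 had 33.0, 35.6 and 35.6 CPM in mutant and 77.0, 70.2 and 75.2 CPM in WT libraries. Of 17 fibroblast and feeder markers, 5 (29.4%; Twist1, Col1a1, Loxl1, Fbn1 and Col5a1*) were lower and 2 (11.8%; Vim and Col6a2) higher, and the summed level of the 7 defining markers was 3.22 to 6.04 CPM in mutant and 7.58 to 8.54 CPM in WT libraries. Vim, an intermediate filament gene that mESCs express, was higher, with 448, 430 and 428 CPM in mutant and 307, 288 and 294 CPM in WT libraries. The 4 defining 2-cell-like markers summed to 4.68 to 7.71 CPM in mutant and 35.4 to 41.1 CPM in WT libraries. Nearly all of this was Zscan4c and Zscan4d, copies that share sequence. Zfp352 had 0.111 to 0.312 CPM in mutant and 0 to 0.486 CPM in WT libraries and was not tested. Tcstv1, also not tested, had no count in mutant and at most 0.111 CPM in WT libraries. The part of the 2-cell-like state in the falls of other lists was not tested. The defining trophoblast markers were near 0 in both groups, with sums of 0.891 to 1.15 CPM in mutant and 0.385 to 0.486 CPM in WT libraries. The call of Apoe was lost without WT replicate 1 (0.10), WT replicate 2 (0.14), mutant replicate 2 (0.12) or mutant replicate 3 (0.13). Col5a1 lost its call without WT replicate 1 (-0.26), WT replicate 2 (-0.27), mutant replicate 1 (-0.28) or mutant replicate 3 (-0.29), and Col6a2 without any 1 WT library (4.46 to 4.49) or mutant replicate 2 (3.19).

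Metabolic lists had small median changes, though single members changed more. Of 34 glycolysis and glucose transport genes, 12 (35.3%) were lower and 1 (2.94%) higher, with a median log2 fold change of -0.12. Of those lower, 1 fell by at least 2-fold, P4ha2, with a log2 fold change of -1.38. Slc16a3, a lactate exporter, had 14.5, 17.2 and 16.3 CPM in mutant and 30.0, 30.0 and 31.9 CPM in WT libraries. Pdk1, which restrains entry of pyruvate into mitochondria, was the 1 that rose, with 146, 135 and 136 CPM in mutant and 84.9, 89.0 and 88.0 CPM in WT libraries. Of 74 nuclear-encoded respiratory chain subunits, 12 (16.2%) were higher and none lower, with a median of 0.06. The number higher was 7 without WT replicate 1 or mutant replicate 2 and 5 without WT replicate 2. Sdhb, the iron-sulfur subunit of complex II, had 175, 174 and 167 CPM in mutant and 147, 143 and 147 CPM in WT libraries.

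Of 37 integrated stress response and amino acid genes, 11 (29.7%) were lower and 3 (8.11%; Slc7a1, Slc7a3* and Slc38a2*) higher, with a median of -0.08. Ddit4, a stress-induced inhibitor of mTOR, had 34.9, 35.9 and 28.0 CPM in mutant and 51.8, 52.8 and 50.6 CPM in WT libraries, with no overlap. Of 34 cholesterol and fatty acid synthesis genes, 10 (29.4%) were lower and 4 (11.8%; Ebp, Acaca*, Srebf1* and Fasn*) higher, and 6 were lower without WT replicate 1. Dhcr7, an enzyme of the last step to cholesterol, had 136, 140 and 139 CPM in mutant and 171, 161 and 160 CPM in WT libraries. Among 28 interferon and innate sensing genes, 5 (17.9%; H2-K1, Psmb9, B2m*, H2-D1* and Mb21d1*) were lower and 2 (7.14%; Ddx58 and Oas3) higher. Ddx58, which encodes the viral RNA sensor RIG-I, had 44.2, 41.3 and 38.9 CPM in mutant and 21.4, 19.7 and 18.6 CPM in WT libraries, and H2-K1, a class I histocompatibility gene, had 11.1, 10.5 and 10.9 CPM in mutant and 20.5, 25.9 and 22.4 CPM in WT libraries. In retinoic acid signalling, Crabp1, a retinoic acid carrier, had 18.4, 18.4 and 16.2 CPM in mutant and 31.1, 37.0 and 36.2 CPM in WT libraries. Without mutant replicate 1 the calls of Slc7a1 (0.13), Acaca (0.17), B2m (-0.55) and Psmb9 (-1.42) were lost. Slc7a1 also lost it without WT replicate 3 (0.11), Slc7a3 without WT replicate 2 (0.15), Psmb9 without WT replicate 2 (-1.68) or mutant replicate 2 (-1.72), and Acaca without WT replicate 3 (0.10), mutant replicate 2 (0.20) or mutant replicate 3 (0.20). Those of Oas3 (0.80 to 1.12), Fasn (0.05 to 0.10) and Srebf1 (0.12 to 0.14) were each lost without 5 of the 6 libraries, the exceptions being WT replicate 3 for Oas3, WT replicate 1 for Fasn and mutant replicate 2 for Srebf1.

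The remaining lists included some close to the shares of all genes and some above them. Of 3 EPOP partners outside PRC2, Tceb2, which encodes Elongin B, was higher, with 204, 209 and 201 CPM in mutant and 171, 166 and 171 CPM in WT libraries. LIN28 and let-7 axis genes had 2 of 17 higher (11.8%) and 2 lower (11.8%). For p53 targets 2 of 26 were higher (7.69%) and 4 lower (15.4%), and for cyclins and CDK inhibitors 2 of 26 higher (7.69%) and 3 lower (11.5%). Integrin, laminin and collagen IV genes had 5 of 29 higher (17.2%) and 6 lower (20.7%), both above the shares of all genes. Cadherins and mesenchymal transition genes had 1 of 28 higher (3.57%) and 5 lower (17.9%). In 4 lists no member was higher. Lower were 2 of 19 unfolded protein response genes (10.5%), 3 of 26 apoptosis genes (11.5%) and 2 of 25 replication-dependent histone genes (8.0%). The histone list nonetheless had a median log2 fold change of -0.41, with 22 members negative and 3 positive. Its summed level was 50.3 to 57.8 CPM in mutant and 67.7 to 72.8 CPM in WT libraries. Of 8 genes of X-linked multicopy germline clusters, 3 (37.5%) were lower.

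By chromosome, falls were most frequent on the X. Of 485 tested X genes, 81 (16.7%) were lower and 26 (5.36%) higher. The share lower on the autosomes ran from 6.91% on chromosome 19 to 15.0% on chromosome 6, close to that of the X. At least 2-fold lower were 43 X genes (8.87%), against 1.30% to 4.99% of the genes of each autosome. Several falls lay side by side. Nudt11, AU022751, Nudt10 and Shroom4 formed a run of 4 from 6047453 to 6637448, and AU022751 had 3.11, 2.71 and 2.01 CPM in mutant and 15.4, 13.4 and 15.8 CPM in WT libraries. Efnb1, Pja1, Tmem28, Eda and Otud6a formed a run of 5 from 99136130 to 100429885. Xlr3a, of a multicopy family expressed in germ cells, had 0.222, 0.208 and 0.223 CPM in mutant and 4.54, 4.27 and 5.65 CPM in WT libraries. It had the largest fall among called genes of at least 2 CPM with separate groups and no predicted or clone name. Near-identical copies can share its reads. Over X genes of at least 10 TPM, the median log2 fold change was -0.010. Shroom4 lost its call without WT replicate 1 (-0.91) or mutant replicate 3 (-0.85).

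In all, 16 runs of at least 4 neighbouring genes with different values were called in 1 direction, 11 lower and 5 higher, beside the 1 run of identical values on chromosome 10. On chromosome 5, Evc and Evc2, which act at the base of the cilium in Hedgehog signalling, fell together with Jakmip1 and Crmp1. Evc2 had 10.3, 12.3 and 12.3 CPM in mutant and 31.7, 29.3 and 28.6 CPM in WT libraries. On chromosome 14, Trim35, an E3 ligase gene, had 49.6, 44.0 and 46.0 CPM in mutant and 83.9, 85.2 and 80.7 CPM in WT libraries, next to Dpysl2 and Pnma2. Runs that rose mixed small and large changes: beside the Y genes, Ccdc38, Snrpf and Usp44 on chromosome 10 had log2 fold changes of 0.25, 0.26 and 0.62, and Pmel, in another run there, had 0.96. Ccdc17 on chromosome 4 had 24 counts over the mutant and 3 over the WT libraries (log2 fold change 2.83, and 2.31 and not called without WT replicate 1). Slc46a3 on chromosome 5 had a log2 fold change of 1.17, and lost its call without WT replicate 1 (1.15), WT replicate 3 (1.02) or mutant replicate 1 (0.59). Genes in several of these runs share exons, so the members of a run are not separate measurements. Crmp1 lost its call without any 1 library other than mutant replicate 1 (-0.23 to -0.16) and in the 6 mESC libraries alone (-0.23).

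The effect of the mutant in EpiLCs was compared with that in mESCs through the difference of the fold changes, in 1 fit to all 12 libraries. In EpiLCs 974 genes (7.02%) were higher and 1224 (8.82%) lower in mutant cells, and 1351 genes (9.73%) were called for the difference. Of the 462 genes at least 2-fold lower in mESCs, 121 (26.2%) were also lower in EpiLCs, 16 were higher there and 210 had a called difference. Their median log2 fold change was -1.51 in mESCs and -0.35 in EpiLCs. Of the 72 at least 2-fold higher in mESCs, 16 (22.2%) were also higher in EpiLCs, 4 were lower and 21 had a called difference, with medians of 1.35 and 0.22. These genes were selected for their change in mESCs, so the smaller values in EpiLCs are a description.

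**Figure D5:**
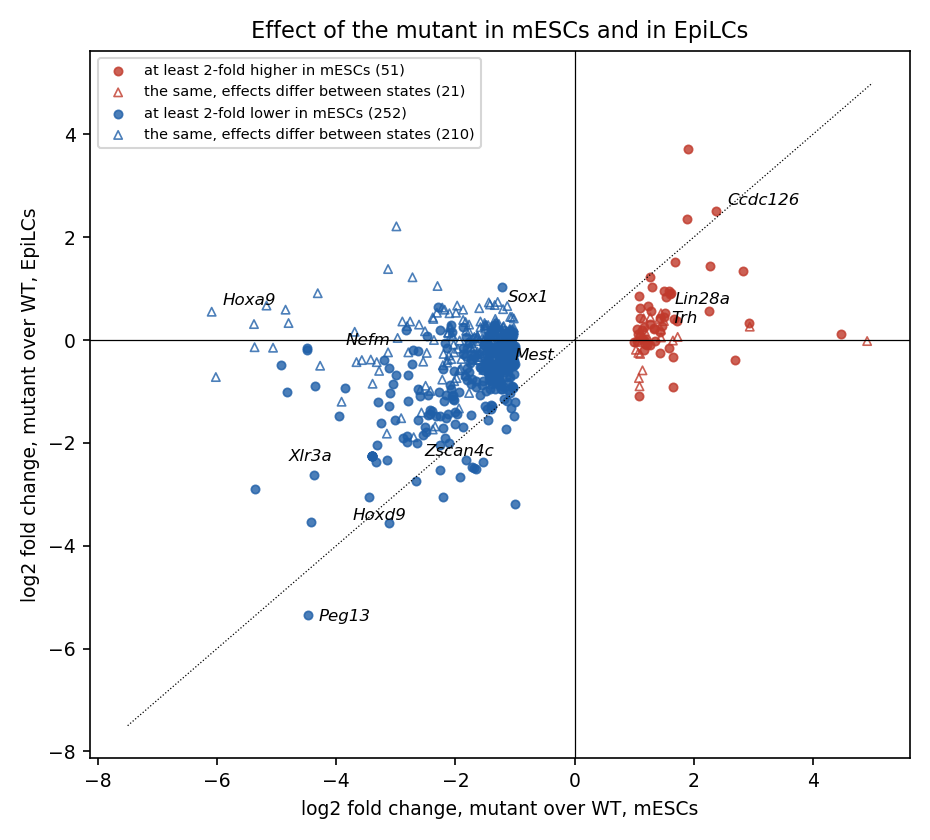
Each point is a gene changed at least 2-fold in mESCs, with its log2 fold change, mutant over WT, in mESCs on the horizontal and in EpiLCs on the vertical axis. Open triangles mark the 21 higher and 210 lower genes whose effects differed between the states, and Ccdc126 and Peg13 lie near the dotted line of equal effects.

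Single genes behaved in different ways across the states. Ccdc126 rose in both, with log2 fold changes of 2.38 in mESCs and 2.51 in EpiLCs, and Hoxd9 fell in both, at -3.45 and -3.06. The difference was not called for either gene, with an edgeR adjusted p of 0.766 for Ccdc126 and 0.815 for Hoxd9. Trh rose by 1.45 in mESCs and by 0.20 in EpiLCs on the log2 scale, and the difference of 1.25 ± 0.07 was called (SE; edgeR adjusted p = 1.05e-30). Hoxa9, without a count in mutant mESCs, was higher in mutant EpiLCs by 0.55. Bmp4 rose in mESCs, by 0.92, and fell in EpiLCs, with a log2 fold change of -0.90. Sox1 fell in mESCs, at -1.33, and rose in EpiLCs, at 0.41. Of the 27 2-cell-like genes, 18 were also lower in EpiLCs and 5 had a called difference, while of the 28 Hox genes 4 were lower and 11 higher in EpiLCs and 6 had a called difference.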

How the data were processed

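RNA was extracted with TRIzol and made into libraries with a NEBNext Ultra II kit, per the labels' protocols. Per the submitters' processing notes, the build was mm10 and the tools named are edgeR 3.18.1, STAR 2.5.3a, FastQC 0.11.2 and featureCounts (Subread). The use of strand in counting was not given in the sources used here. The deposited raw counts were tested. The authors' deposited CPM, a score scaled to library size, were only compared with them, and the authors' deposited TPM gave levels per length. Features named by spreadsheet dates (26 of 19656, at most 0.212% of counts) were left out. The submitters' fold change columns were not used.

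After filterByExpr and TMM scaling, genes were fitted with edgeR 4.0.16 (glmQLFit, glmQLFTest; R 4.3.3) to all 12 libraries, with 8 residual degrees of freedom and calls at a Benjamini-Hochberg adjusted p of 0.05 over 13879 genes. Replicates differed beyond sampling noise (chi-square over its degrees of freedom 2.16 to 2.82). Exon overlaps came from GENCODE M21 with bedtools 2.31.1, and promoters from RefSeq (GRCm38.p6). The steps were tested on simulated data. The members and lists, 44 in all, were chosen with earlier results of these data known. Named genes were Epop, the 10 largest rises and falls of at least 2 CPM with separate groups, the 4 largest changes of each list, the 5 most abundant calls of at least 1.5-fold in each direction, runs of at least 4 neighbours, PRC2 subunits and 7 pluripotency genes. The 10 largest rises and falls left out predicted, clone and date names. Alternatives were relative log expression factors, DESeq2 1.42.0, limma-voom (limma 3.58.1), 2 other filters, the 6 mESC libraries alone, a replicate block and leaving out each mESC library. A few genes that the counts include are not reported here.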

Additional observations from a re-analysis of the deposited data

Results flagged for a closer look

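For 11 of the named genes with the largest or most abundant changes, the effect of the mutant differed between mESCs and EpiLCs in the edgeR test of the difference, the log2 fold change in mESCs minus that in EpiLCs. Rises were larger in mESCs for Trh (difference 1.25), Lin28a (1.13), Utf1 (0.77) and Cyb5r3 (0.45). Falls were larger in mESCs for Nefm (-3.04), Zscan4a (-1.39), Zscan4e (-1.33), Mest (-0.91), Tuba3a (-0.39), Rbmxl2 (-0.39) and Actg1 (-0.35). Utf1 had a log2 fold change of 0.01 in EpiLCs, at means of 418 CPM in mutant and 416 CPM in WT cells. Nefm was not called in EpiLCs, at -0.38, and the other falls were called in both states. Because these genes were chosen for their change in mESCs, their values there are a description. No explanation was tested.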

How the results depend on the processing

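Counts of genes and of list members were recomputed under each alternative. Of 298 comparisons 282 stayed within 1.5-fold of the value given, and no named gene that was called changed sign. With a mean of at least 2 CPM required, 46 genes were at least 2-fold higher and 243 lower, and the members lower were 3 Hox genes, 5 other homeobox factors and 8 other Polycomb target transcription factors, since fewer genes were tested. The last list had 11 in a fit to the 6 mESC libraries alone. Over the fits that leave out 1 library each, genes higher numbered 828 to 995, lower 1114 to 1291, at least 2-fold higher 63 to 77 and at least 2-fold lower 411 to 435. Members lower ranged from 6 to 12 for homeobox factors outside Hox, 9 to 17 for other Polycomb target transcription factors, 5 to 11 for Polycomb target signalling genes and 6 to 10 for cholesterol and fatty acid synthesis genes. Members higher ranged from 7 to 11 for naive pluripotency genes and 5 to 12 for respiratory chain subunits. The cause of these ranges was not tested. Of 274 named genes called, 86 lost the call under at least 1 alternative, most of them without a library. Replicate numbers share no stated origin, and same-numbered mutant and WT libraries correlated at 0.015 to 0.027 in their deviations from the group means. With the number as a replicate block the counts were 1202 higher and 1412 lower, and 68 and 452 at 2-fold or more. Counts limit the weak genes: below about 1 CPM a library holds around 10 reads of a gene.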
